A study of Daphnia magna with 15 samples.

Results

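Of the 25092 gene models measured in Daphnia magna, a small freshwater crustacean kept for toxicity tests, 144 met a rule for methylated calls in salinity only. Each carried methylated calls in 2 to 8 libraries labelled salinity and none in the libraries labelled control that covered it. A gene model is a predicted mRNA, and a call is 1 reading of a cytosine as methylated or unmethylated. A gene model counted as covered in a library with 10 or more calls. It was kept if at least 4 salinity and 2 control libraries covered it, if its median over covered libraries was under 500 calls, if at least 50% of the covered salinity libraries had methylated calls, and if no covered control had any. The coverage criteria left 7774 gene models, of which the 144 were 1.85%. The members were thus chosen by their methylated calls in both groups, and their levels below are a description of that choice.

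The salinity group held 12 libraries and the control group 3, all of genomic DNA from adult females. The founders of the salinity group were kept at 4.1 g/L NaCl and those of the control group at 0 g/L, in 3 cultures each at 20 °C. Later generations were kept in control medium up to generation 4, so a salinity library may stem from exposed animals or from their descendants. The labels give neither the generation nor the culture of a library, so every p-value is set against library-to-library spread, some of it perhaps technical or common to 1 culture. The DNA was cut with MspI, an enzyme that cuts at CCGG, and treated with bisulfite, after which unmethylated cytosines are read as thymine. Each library mixes the DNA of many cells, so a few fully methylated copies and partial methylation of many copies cannot be told apart.

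DNA methylation in water fleas is sparse and lies mainly within gene bodies. Maintenance methyltransferases copy it at cell division, and de novo methyltransferases add it at new positions. Because water fleas can reproduce clonally, marks that pass from mother to offspring are studied as a possible record of past exposure. The question for the 144 was how their number and their methylation compare with what the same libraries give when any 3 of them stand in for the controls. The deposited identifiers have no gene names in the sources used here (none of the 25092 occurs among 28335 RefSeq genes), so the gene models are given by identifier and no function is assigned.

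Libraries held 1250901 to 2905380 calls in the salinity group and 2115766 to 2467138 in the control group. Methylated counts of 1 and 2 were nearly missing (2 and 6 entries over all libraries, where an entry, or listing, is 1 gene model in 1 library, against 4530 with a count of 3). The lowest recurring count was 3 in 11 libraries, and it was 4 in salinity replicates 9, 11 and 12 and in control replicate 3. Among the 7774 gene models, the share with methylated calls was 4.33%, 1.70% and 1.70% of covered gene models in these salinity libraries and 6.26% to 10.1% in the other 9. It was 8.89% and 9.39% in control replicates 1 and 2 and 3.75% in control replicate 3. A deposited 0 can thus hide a small number of methylated calls, and libraries of both groups differed in how many were recorded.

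The methylation of the 144 gene models was patchy within the salinity group. Over 757 covered listings in salinity libraries, 432 had methylated calls and 325 had none. In 51 of the 144, methylated calls occurred in 2 salinity libraries, in 61 in 3, in 22 in 4, and in 10 in 5 or more. Of the 144, 91 stood exactly at the threshold of 50% (51 of them with 2 of 4 covered libraries), 25 reached 75%, and 1 was methylated in every covered salinity library. Just outside the threshold were 40 gene models with no methylated call in controls and a share of 40% to under 50% of covered salinity libraries. The median pooled salinity level, methylated calls over all calls of the covered libraries, was 3.14% in the 91 just inside and 3.56% in the 40 just outside.

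**Figure D1:**
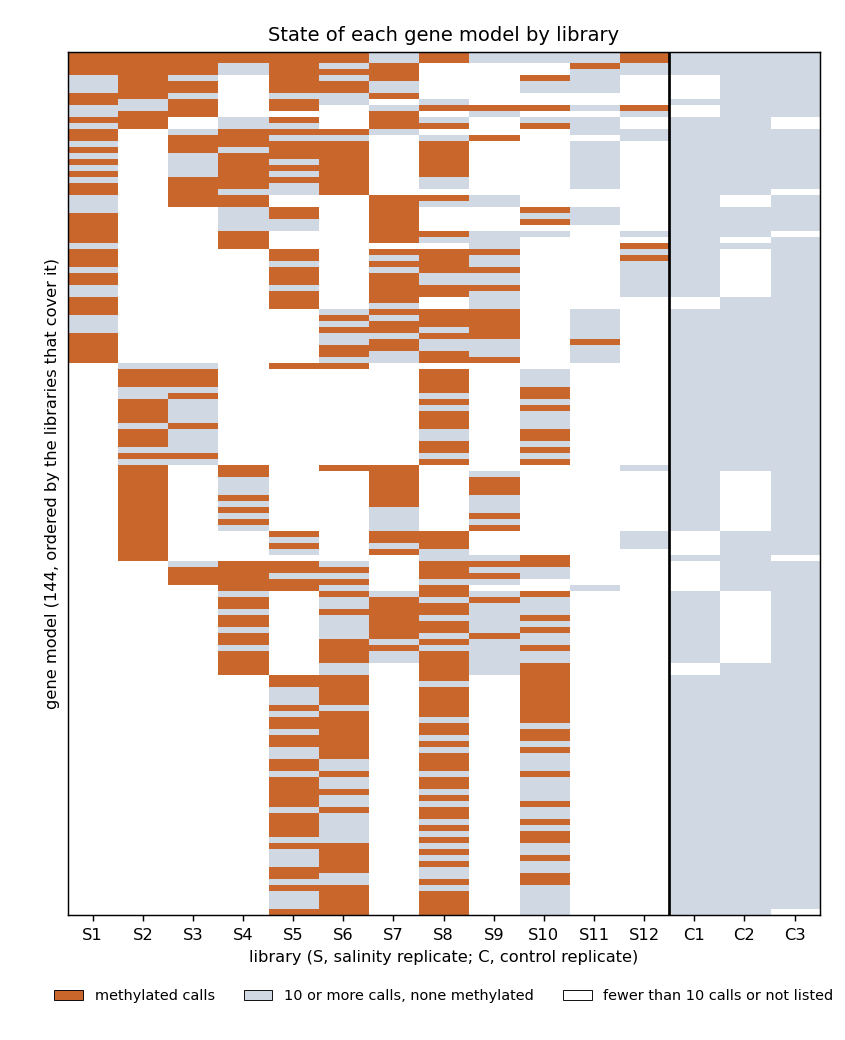
State of the 144 gene models (rows) in the 12 salinity and 3 control libraries (columns): methylated calls, at least 10 calls with none methylated, or not covered. Rows come in blocks covered by the same libraries, methylated calls are scattered within each block, and the control columns hold none because the rule chose the rows so.

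Few salinity libraries covered a typical member. Gene models covered in exactly 4 salinity libraries made up 73 of the 144 (50.7%). By this coverage the members were 73 of 2165 gene models (3.37%) at 4 covered salinity libraries, 59 of 3819 (1.54%) at 5 to 7, and 12 of 1790 (0.670%) at 8 to 12. The most common set of covering libraries, salinity replicates 5, 6, 8 and 10 with all 3 controls, held 39 members, 27.1% of them, against 16.8% of the 7774. Salinity replicate 8 covered 116 of the 144, more than any other salinity library, and it also covered 6407 of the 7774. Without salinity replicate 8, 79 gene models met the rule, of 5890 meeting the coverage criteria. Without salinity replicate 10 there were 89 of 5927. Fewer gene models thus met the coverage criteria in both cases, so the lower numbers partly reflect lost coverage.

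Salinity libraries differed widely at these gene models. Methylated calls occurred in 2 of 32 covered members (6.25%) in salinity replicate 11, in 5 of 22 (22.7%) in replicate 12 and in 20 of 58 (34.5%) in replicate 9. The other 9 salinity libraries ran from 45.3% in replicate 10 to 82.6% (38 of 46) in replicate 2. The 3 low ones had a lowest recurring count of 4 and were also low over all 7774 gene models, and the part of that in the result was not tested. Over the covered members of a library, methylated calls made up 2.70% ± 1.09 of all calls (SD, n = 12 salinity libraries) and none in the 3 controls, as the rule requires.

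Levels were low, and most rested on few methylated calls. Where methylated, a listing held a median of 4 methylated calls and at most 20. A count of 3 or 4 made up 236 of the 432 methylated listings (54.6%), and 46 had 10 or more. The level of these listings had a median of 6.61%, a 90th percentile of 21.7% and a maximum of 70.6%. Per gene model the pooled salinity level ran from 0.405% to 28.8% with a median of 3.74%. Depth was similar in both groups, with a median of 78.5 calls in methylated salinity listings, 67 in salinity listings without methylated calls and 69 in the 374 control listings.

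Dapma7bEVm003080t1 was the member methylated in every covered salinity library. It held 14 of 203, 11 of 175, 6 of 127 and 8 of 169 methylated calls in salinity replicates 5, 6, 8 and 10, against 0 of 149, 111 and 134 in control replicates 1 to 3. The levels were 6.90%, 6.29%, 4.72% and 4.73% in the salinity libraries and 0 in each control. All 4 salinity libraries thus lay above the 3 controls, and the mean was 5.66% ± 1.10 (SD, n = 4). With a count of 3 as the lowest recorded, control replicate 1 could have shown a level down to 2.01%.

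Dapma7bEVm002030t1 had methylated calls in 5 of 6 covered salinity libraries. Its levels were 10.7%, 9.52%, 20.6%, 13.3%, 6.78% and 0 in salinity replicates 1, 5, 7, 8, 9 and 12, with a mean of 10.2% ± 6.84 (SD, n = 6), against 0 of 37 and 0 of 48 calls in the 2 covered controls. The groups touched at 0, through salinity replicate 12. Here the lowest level that a control could have recorded was 8.11%, close to the salinity mean.

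Dapma7bEVm001256t1 and Dapma7bEVm003003t1 were each methylated in 4 of 5 covered salinity libraries, and in both replicate 12 was the exception. Dapma7bEVm001256t1 had levels of 11.1%, 8.97%, 8.70%, 7.89% and 0 in salinity replicates 2, 5, 7, 8 and 12, against 0 of 67 and 0 of 56 calls in the 2 covered controls. Dapma7bEVm003003t1 had 7.19%, 5.76%, 1.99%, 3.15% and 0 in salinity replicates 2, 4, 6, 7 and 12, against 0 of 183, 218 and 131 calls in control replicates 1 to 3. In both, 1 salinity library was as low as the controls.

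The 4 members with most control calls were at levels under 3% in every salinity library. Dapma7bEVm000437t1 held 3 of 452, 3 of 390, 0 of 518 and 3 of 448 methylated calls in salinity replicates 5, 6, 8 and 10, against 0 of 499, 441 and 667 in the controls. Dapma7bEVm641918t1 held 0 of 515, 3 of 439, 4 of 280 and 0 of 381 in the same salinity libraries, against 0 of 529, 480 and 437 in the controls. Both had salinity libraries with no methylated call at the depth of the controls. Dapma7bEVm639582t1 held 0 of 576, 0 of 291, 9 of 361 and 3 of 332 in salinity replicates 2, 3, 8 and 10, against 0 of 504, 459 and 449 in the controls. Dapma7bEVm010206t1 held 3 of 285, 0 of 518, 0 of 463, 4 of 261, 4 of 402 and 0 of 331 in salinity replicates 1, 4, 5, 7, 10 and 11, against 0 of 585, 506 and 359 in the controls. Each of these 2 was methylated in 50% of its covered salinity libraries, so the groups met at 0. In these 4 the absence from controls rests on 1412 to 1607 calls per gene model, and the salinity signal on 7 to 12 methylated calls. Even at this depth, no control could have recorded the pooled salinity level of Dapma7bEVm000437t1, Dapma7bEVm641918t1 or Dapma7bEVm010206t1. For Dapma7bEVm641918t1 the lowest level a control could have recorded was 0.567%, against a pooled salinity level of 0.433%. Dapma7bEVm639582t1 went the other way, with 0.595% against 0.769%. These pooled levels include the salinity libraries at 0.

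**Figure D2:**
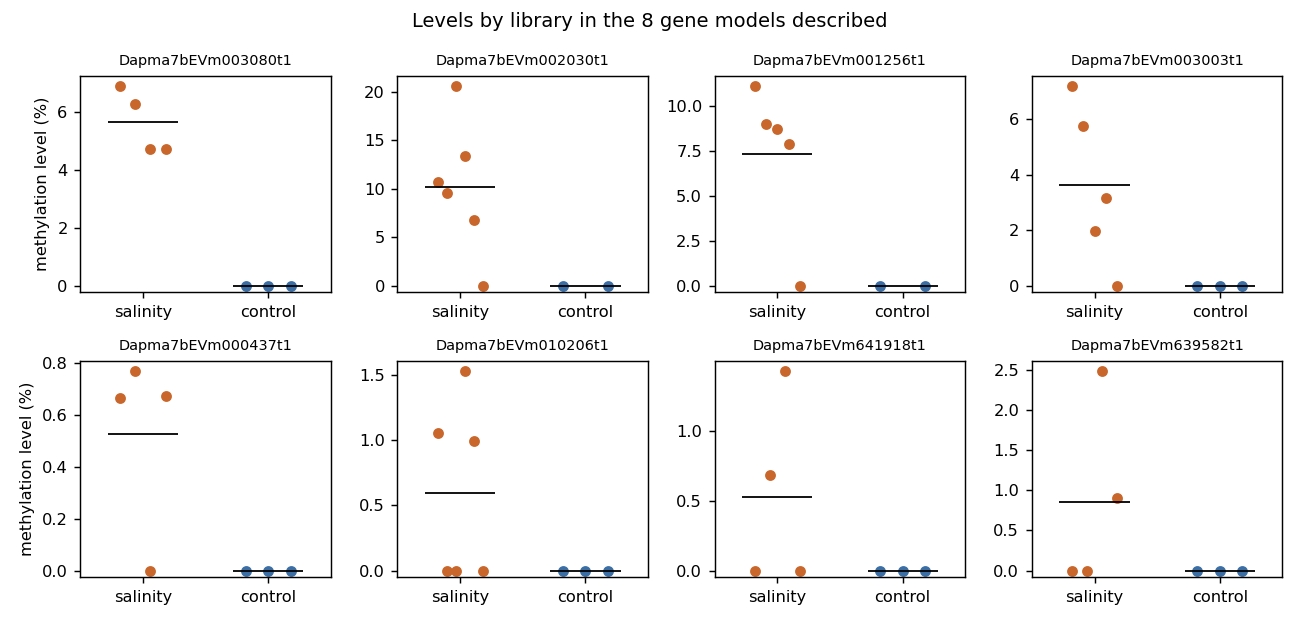
Methylation level (%) by library of the 8 gene models described, with salinity libraries left and controls right of each panel, points for covered libraries and lines for group means. Only Dapma7bEVm003080t1, of the 8, had no salinity library at 0.

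Some members may not be independent of each other. In 5 pairs of members the same libraries were covered and the methylated counts were identical in each of them, with 3 or more methylated libraries, and whether the 2 share reads could not be read from the tables. The pair Dapma7bEVm008704t1 and Dapma7bEVm633041t1 was covered in all 15 libraries and methylated in 8 of the 12 salinity libraries, with 42 methylated calls in each. The calls of Dapma7bEVm008704t1 in the controls were only 37, 17 and 28. Its salinity level was highest in replicate 3, at 46.2% (6 of 13 calls), and it was 0 in replicates 7, 9, 10 and 11. These 2 gene models were singled out after their values were seen.

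A 0 in a control was set beside what its depth could have recorded. At the pooled salinity level of each member, its covered controls together would have held 1.62 to 22.8 methylated calls, with a median of 7.03. In 36 members this was under 5. The lowest level a control could have recorded (its lowest recurring count over its calls) was above the member's pooled salinity level in 248 of 374 control listings (66.3%). In 67 of the 144 members (46.5%) that was so in every covered control. The pooled salinity level includes salinity libraries at 0, so it lies below the level of the salinity libraries that recorded methylated calls, some of them at depths like those of the controls.

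**Figure D3:**
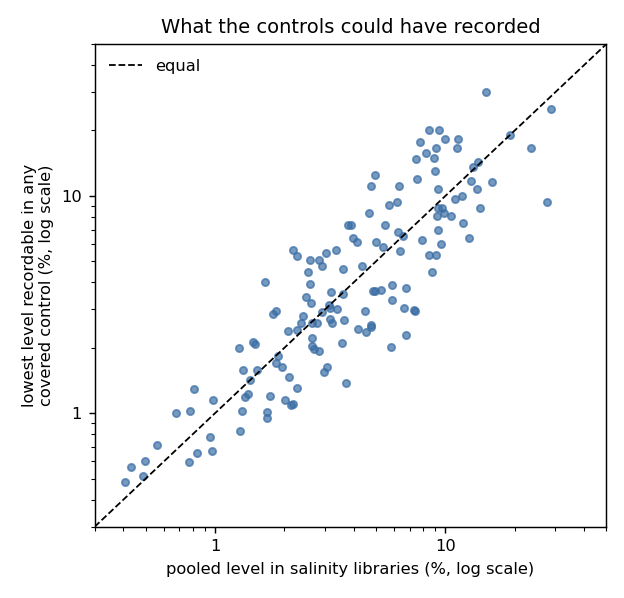
Lowest level (%) that any covered control could have recorded against the pooled salinity level (%), both on log scales, with 1 point per member. For the 67 members above the dashed line of equality, this lowest level exceeded the pooled salinity level, which includes salinity libraries at 0.

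The members were next set beside the gene models methylated as often in salinity but also in a control. At the same coverage, 475 gene models (6.11% of the 7774) had methylated calls in at least 50% of covered salinity libraries. Of these, 331 were also methylated in controls, 176 in 1, 122 in 2 and 33 in 3, and the 144 in no control were 30.3%. The share in no control was 58 of 138 (42.0%) where 2 controls were covered and 86 of 337 (25.5%) where 3 were. It was 36 of 68 (52.9%) where the controls would have held under 5 methylated calls at the salinity level, 76 of 216 (35.2%) at 5 to under 10, 31 of 158 (19.6%) at 10 to under 20, and 1 of 33 (3.03%) at 20 or more. That 1 was Dapma7bEVm003080t1. By the number of covered salinity libraries the share in no control was 35.4% of 206 at 4, 27.2% of 217 at 5 to 7 and 23.1% of 52 at 8 to 12. The pooled salinity level had a median of 3.74% in the 144 and 4.57% in the 331, and a median of 66.7 calls per covered control stood against 76.3. Per covered salinity library the order was reversed, with medians of 75.6 calls in the 144 and 69.75 in the 331. Controls had fewer calls per library than salinity in 84 of the 144 and in 160 of the 331. These comparisons run over gene models, which are not replicates, and the difference was not tested.

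The same rule was then applied with every choice of 3 libraries in the place of the controls. The labelled controls gave 144 gene models, against a median of 141 and a range of 53 to 350 over all choices of 3 of the 15 libraries. As many or more were found in 216 choices (one-sided exact permutation test, p = 0.475). As a share of the gene models meeting the coverage criteria, 1.85% stood against a median of 1.60% (one-sided exact permutation p = 0.310). The share in no control of all gene models methylated that often elsewhere, 30.3%, stood against a median of 30.7% (exact permutation p = 0.527). The number for the labelled controls was thus not larger than other sets of 3 libraries commonly gave. The highest number, 350, came from 3 salinity libraries, replicates 7, 9 and 11, of which 2 had a lowest count of 4. The lowest number, 53, came from salinity replicates 2 and 12 with control replicate 2, of which 1 did.

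**Figure D4:**
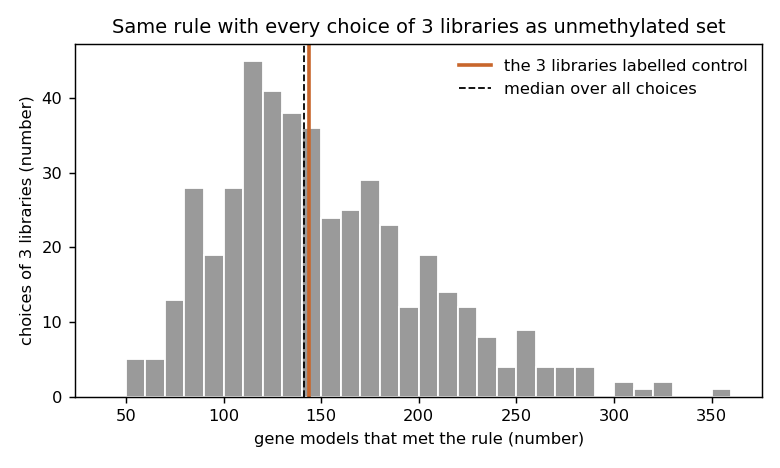
Number of gene models that met the rule (x axis) for each choice of 3 of the 15 libraries as the unmethylated set (y axis, number of choices). The labelled controls, at 144, lie near the median of 141.

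The number was also compared by how many libraries with a lowest count of 4 stood in the unmethylated set, a grouping chosen after seeing the data and not tested. Of 220 choices with exactly 1 library of lowest count 4, as among the labelled controls, 121 gave 144 gene models or more, with a median of 151. The median was 115 over the 165 choices with no such library and 210.5 over the 70 choices with more than 1. Choosing 1 library from each of the 3 bands of numbers in the sample titles (1 to 5, 10 to 14 and 17 to 21, each with 4 salinity libraries and 1 control) gave a median of 144 over 125 choices (exact permutation p = 0.512). Requiring all 3 controls to be covered left 86 gene models and changed the call (one-sided exact permutation p = 0.0374). There other choices of 3 libraries jointly covered fewer gene models, and as a share of those covered, 1.56% against a median of 0.988%, the exact permutation p was 0.174.

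The last comparison used libraries that had no part in choosing the gene models. For each of the 36 pairs of 1 salinity and 1 control library, the rule was applied to the other 13 libraries, and the gene models found were read in the 2 left out where both covered them. In all, 120 gene models were found this way, with 1046 readings over the pairs. To enter, a gene model had to be covered in all 3 controls and in at least 4 salinity libraries besides the left-out one. The 73 members covered in exactly 4 salinity libraries and the 58 covered in 2 controls could not enter. The readings are thus of another set of gene models and do not cover the 144 as a whole. Methylated calls occurred in 335 readings (32.0%) in the left-out salinity libraries and in 395 (37.8%) in the left-out controls. The difference of -5.74 percentage points was within what other choices of 3 libraries gave, -47.6 to 32.0 with a median of -2.72 (two-sided exact permutation over all choices of 3 libraries with the whole procedure repeated, p = 0.690). Both p-values adjusted over the 2 tests of the number and of this difference (Benjamini-Hochberg, exact permutation) were 0.690.

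The left-out controls differed among themselves more than the groups did. Against control replicate 1 the share was 31.1% in the left-out salinity libraries and 41.4% in the control, and against control replicate 2 it was 32.3% and 49.2%. Against control replicate 3 it was 32.9% in salinity and 12.9% in the control, so the direction depended on that library. Among the 12 salinity libraries methylated calls occurred least often in replicate 11 (7 of 151 readings, 4.64%) and most often in replicate 2 (25 of 50). Control replicate 3 and salinity replicates 9, 11 and 12 had the lowest shares of the 15 libraries, and they are the 4 with a lowest count of 4. Over the 18 pairs of libraries with a lowest count of 3, the share was 38.7% in salinity and 46.0% in control libraries. In each of the 15 libraries the share of readings was above the share of all covered gene models among the 7774, in controls as in salinity libraries. A gene model can enter several readings of a library but counts once among the 7774, so these shares are unlike measures.

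**Figure D5:**
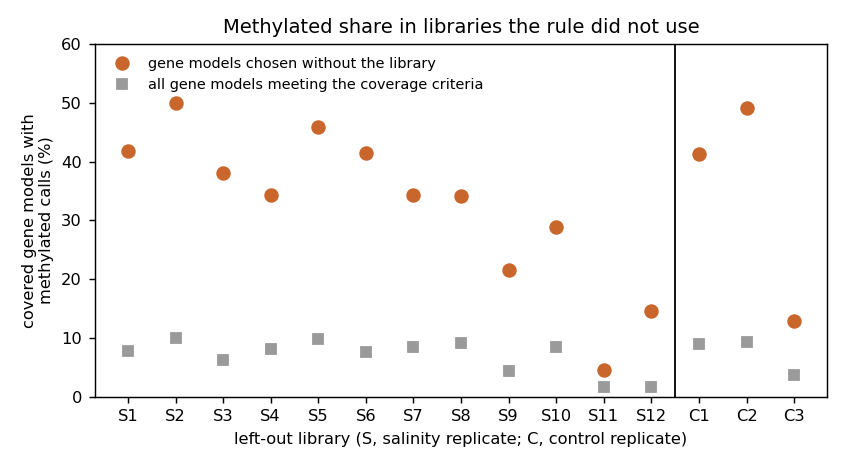
Share (%) with methylated calls in each left-out library, salinity libraries left and controls right. Circles give the share of readings of gene models chosen without that library, where a gene model counts once for each pair in which it was read. Squares give the share of covered gene models among all 7774 that meet the coverage criteria, each counted once. Control replicates 1 and 2, at 41.4% and 49.2%, lie within the range of the salinity libraries.

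The fit across gene models, which kept the minimum coverage but no upper limit on calls, gave no calls. Of 8248 gene models tested with a quasi-binomial regression, 0 (0%) passed at a Benjamini-Hochberg adjusted p under 0.05, in either direction, with a lowest adjusted p of 0.956. Only 2314 of the 8248 had any methylated calls. The others could not have passed, yet they count in the adjustment and in the shares given here. Without adjustment, 260 had a p under 0.05, 54 of them (0.655% of those tested) higher in salinity and 206 lower. Of the 144, 44 were among the 54, which follows from a choice on the same contrast, and their smallest adjusted p was 1. On logit levels, limma called 3 of the 8248 gene models, 2 of them lower in salinity and 1 higher, Dapma7bEVm003080t1 (limma adjusted p = 0.00960). That gene model was chosen on the same contrast, so nothing is read from its p-value. With the title bands as a block limma called 0, and its smallest adjusted p among the 144 was 0.135.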

How the data were processed

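The members, lists and tests were chosen with earlier results of these data known. Per the labels' protocols, MspI fragments received methylated adapters before bisulfite conversion. Bismark 0.18.1, Trim Galore 0.4.4 and FastQC are named, per the submitters' processing notes. Not given in the sources used here are genome build, cytosine context, calling rule and the way calls were summed. For each library the authors deposited raw counts of all calls per gene model, which were used as they are. The methylated calls were deposited as estimated counts that need not be whole and were rounded here. Replicate numbers follow sample order and pair nothing. Tables were joined by identifier (7 of the 144 members had 2 positions across libraries, and no position is reported).

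The lowest recurring count was the lowest that made up at least 5% of a library's methylated gene models. The regression used methylated and total calls, a two-sided F test on the deviance, a Pearson dispersion floored at 1 and Benjamini-Hochberg adjustment at 0.05. It was tried on simulated data with planted changes far larger than most levels here and without the lower limit on counts. The rule and the left-out procedure were run on gene models planted as methylated in every covered salinity library and in no control. Those runs check the code and not how the methods perform on data like these. The exact permutation tests enumerated all choices of 3 from 15 libraries, so the smallest possible p is 0.00220. Named were the 4 members with the highest share of methylated salinity libraries and the 4 with most control calls. Limma used 0.5 added to the counts. Tools were Python 3.11.15, numpy 2.4.6, pandas 2.3.3, scipy 1.17.1, R 4.3.3 and limma 3.58.1. The comparison with gene models also methylated in controls, the stratification by lowest count and the shares of covered gene models were chosen after seeing the data.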

Additional observations from a re-analysis of the deposited data

Results flagged for a closer look

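In 2 of the 8 gene models described, 1 covered salinity library was flagged as below the others by Dixon's test at the 95% level. The test nominally flags about 1 group in 20 by chance, a rate that need not hold where low counts go unrecorded. Dapma7bEVm000437t1 was at 0% in salinity replicate 8 (0 of 518 calls), against 0.664% to 0.769% in the other 3 covered salinity libraries. Each of those 3 held 3 methylated calls, their lowest recurring count. Dapma7bEVm001256t1 was at 0% in salinity replicate 12 (0 of 26 calls), against 7.89% to 11.1% in the other 4. With a lowest recurring count of 4, replicate 12 could not have recorded such levels at 26 calls.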

How the results depend on the processing

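No paired analysis was possible because the labels carry no replicate numbers; title bands as a block gave p of 0.512 for the number and 0.728 for the left-out difference (exact permutation). The number of members, 144, was 93 with methylated counts of 3 set to 0, 86 with all 3 controls covered, 12 with at least 8 salinity libraries covered and 25 at a share of 75%. It lay between 123 and 184 with 5 or 20 calls as minimum, a share of 40%, no upper limit on calls or gene models with identical total and methylated calls counted once. The pairs of members with identical methylated counts differed in total calls, so the last setting merged none of them and does not test their independence. Without single libraries the number of members ran from 79 (without salinity replicate 8) to 172 (without control replicate 2), with 89 without salinity replicate 10. The gene models meeting the coverage criteria numbered 5890, 6761 and 5927 in these 3 settings, against 7774. Except with all 3 controls covered, no setting gave an exact permutation p under 0.05, and leaving out single libraries gave 0.0769 to 0.907. The left-out difference, -5.74 points, stayed below 0 in every setting run and ran from -10.7 to -0.856 without single salinity libraries; without a control it could not be computed. The median salinity level, 3.74%, ran from 3.36% to 4.98% without single libraries and was 3.14% with 20 calls as minimum. The share in no control, 30.3%, was 35.5% with counts of 3 set to 0 and 27.4% to 41.5% without single libraries. The regression called 0 gene models without any single library (0 to 0). Of the 8248 tested, 2314 had any methylated calls. Fisher's exact test on calls pooled per group called 184 of the 8248 (2.23%, 111 of them lower in salinity). Pooling leaves out library-to-library spread. Without the floor on the dispersion 11 (0.133%, 10 of them lower in salinity) were called, and with limma 3 (0.0364%, 2 of them lower in salinity). The causes were not tested. In 66.3% of control listings the lowest recordable level was above the member's pooled salinity level. That pooled level includes salinity libraries at 0, and the part of depth in the result was not tested.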

Other observations

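The highest levels sat in members with few calls, named here after their values were seen. Dapma7bEVm003444t1 had the highest pooled salinity level, 28.8%, with 3 of 17, 6 of 29, 12 of 17 and 0 of 10 methylated calls in salinity replicates 5, 6, 8 and 10, against 0 of 11 and 0 of 12 in control replicates 1 and 2. Dapma7bEVm010671t1 held 10 of 20, 9 of 37, 16 of 37 and 8 of 36 methylated calls in salinity replicates 3 to 6 and none of 11 and 15 in replicates 8 and 9, against 0 of 32 and 0 of 12 in control replicates 2 and 3. In the opposite direction, 82 of the 7774 gene models had methylated calls in at least 50% of covered controls and in no covered salinity library. This number is not on a par with the 144. It asks for methylated calls in as few as 1 of 2 controls, and for none in at least 4 salinity libraries. It was not compared with other choices of 3 libraries.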
